A study of Mus musculus with 14 samples.

Results

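Canalicular transport was followed through 9 genes whose products work in the bile canaliculus, the narrow channel between hepatocytes into which bile is secreted. They were 8 ATP-binding cassette (ABC) transporter genes, Abcb4, Abcb11, Abcb1a, Abcb1b, Abcc2, Abcg2, Abcg5 and Abcg8, and the lipid flippase gene Atp8b1. They were chosen by name, and all 9 were measured, each by 1 probe set that the array annotation gives to that gene alone, among 19938 genes in all. Liver tissue free of tumour came from female mice aged 14 months in 3 groups. The Mdr2-KO/IL6-KO mice lacked both Mdr2 and interleukin 6 and gave 6 arrays. The Mdr2-KO mice lacked Mdr2 and gave 5 arrays. Wild-type C57BL/6 mice gave 3 arrays and were the only group whose strain the labels state, so strain and the loss of Mdr2 or interleukin 6 cannot be told apart. The labels do not say how either gene was disrupted or whether each array is a separate mouse, so every p-value rests on the spread among these 14 arrays, which may be technical.

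Bile forms because transporters in the canalicular membrane pump its solutes outward at the expense of ATP, and water follows. Abcb11 (the bile salt export pump) moves bile salts, Abcb4 (Mdr2) moves phosphatidylcholine that wraps the bile salts in mixed micelles, and the dimer of Abcg5 and Abcg8 moves cholesterol. Without phosphatidylcholine the detergent action of bile salts falls on the bile duct lining, and mice that lack Mdr2 develop lasting cholangitis and, at older ages, tumours of the liver. Interleukin 6 is an inflammatory cytokine to which hepatocytes respond with acute phase proteins.

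Promoter windows are shown for 5 of the 9 genes, for the reasons given here. Those of Abcg2, Abcg5 and Abcc2 are not shown. Each window runs from 250 bases before to 50 bases after an annotated transcript start and was taken from RefSeq on GRCm38.p6, in which 8 of the 9 genes had at least 1 window. The Abcb11 window is shown because it holds a match to the inverted repeat bound by FXR (Nr1h4), the nuclear receptor for bile acids. The Abcg8 window shown was chosen because Abcg5 is read from the opposite strand and its start lies 109 bases away. Thus 209 bases belong to the windows of both genes. Another Abcg8 window, at a different annotated start, is not shown. It shares no bases with the Abcg5 window and held no match to any motif named below. Abcb1a, Abcb1b and Abcb4 lie next to each other, and Abcb1b rose while Abcb4 fell. Capitals mark matches, on either strand, to the inverted repeat that FXR binds (with 2 bases left free), AGATAA (the site of GATA factors), GGGCGG (a GC box), CCAAT (the box of that name) and TGACNNNGC (the core of the antioxidant response element). No 2 capital stretches in these 5 windows overlap.
Abcb11, chr2:69342567-69342866, minus strand: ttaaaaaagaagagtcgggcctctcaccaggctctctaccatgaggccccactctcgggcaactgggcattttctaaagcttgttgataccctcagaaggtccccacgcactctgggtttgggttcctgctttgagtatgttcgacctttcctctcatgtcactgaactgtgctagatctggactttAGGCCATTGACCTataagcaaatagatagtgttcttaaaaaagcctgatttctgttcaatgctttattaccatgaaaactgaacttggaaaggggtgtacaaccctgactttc
Abcg8, chr17:84682871-84683170, plus strand: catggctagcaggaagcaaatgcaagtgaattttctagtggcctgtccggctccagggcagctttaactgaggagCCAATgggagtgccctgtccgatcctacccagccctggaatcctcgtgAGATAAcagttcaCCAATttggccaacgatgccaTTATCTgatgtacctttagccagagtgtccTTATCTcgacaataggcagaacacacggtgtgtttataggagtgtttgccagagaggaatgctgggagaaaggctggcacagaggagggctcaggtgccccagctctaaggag
Abcb4, chr5:8893471-8893770, plus strand: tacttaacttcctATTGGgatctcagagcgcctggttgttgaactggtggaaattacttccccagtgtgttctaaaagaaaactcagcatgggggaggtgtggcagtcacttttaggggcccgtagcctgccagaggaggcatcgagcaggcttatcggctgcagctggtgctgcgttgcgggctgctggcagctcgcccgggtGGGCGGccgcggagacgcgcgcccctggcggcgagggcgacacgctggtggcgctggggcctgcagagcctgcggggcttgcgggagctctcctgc
Abcb1a, chr5:8566841-8567140, plus strand: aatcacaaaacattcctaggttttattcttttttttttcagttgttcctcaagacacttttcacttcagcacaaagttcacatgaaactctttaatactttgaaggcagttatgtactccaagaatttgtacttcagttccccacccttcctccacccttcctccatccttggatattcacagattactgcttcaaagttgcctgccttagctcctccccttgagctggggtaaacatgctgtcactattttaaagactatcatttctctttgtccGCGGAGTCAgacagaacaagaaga
Abcb1b, chr5:8797897-8798196, plus strand: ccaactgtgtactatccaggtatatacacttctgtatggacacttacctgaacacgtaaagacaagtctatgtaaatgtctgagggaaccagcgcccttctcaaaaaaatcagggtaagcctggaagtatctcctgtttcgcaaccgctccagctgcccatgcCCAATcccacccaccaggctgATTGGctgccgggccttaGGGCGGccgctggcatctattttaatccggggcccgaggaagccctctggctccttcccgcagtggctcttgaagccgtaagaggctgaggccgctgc

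The inverted repeat, here AGGCCATTGACCT, stood 63 bases before the Abcb11 start, and only 12 of 32851 promoter windows held a match (0.0365%), among them also the window of Slco1b2, a basolateral uptake carrier for organic anions. The bases shared by the Abcg5 window and the Abcg8 window shown held 3 matches to the GATA site, 2 of them between the starts. The other began 12 bases past the Abcg5 start. The GATA site was found at least once in 11.2% of windows. Abcb1b held a pair of CCAAT boxes and a GC box, the GC box 48 bases before the start. Abcb4 also held a GC box, 46 bases before its start, and a CCAAT box 237 bases before it. Abcb1a held neither kind of box and instead 1 match to the antioxidant core, which lay 26 bases past the start. A CCAAT box was found in 37.4% of all windows, a GC box in 35.7% and the antioxidant core in 12.4%. A match describes the letters of a window and not the binding of a factor.

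Values are on the log2 scale, 1 per probe set and array, and array medians lay between 6.15 and 6.24. A background of 5.48 was taken from 1027 olfactory receptor genes, of whose means 95% fall under it, and 29.0% of genes had a mean under it. Differences are in log2 units from a limma fit over all 19938 genes with Benjamini-Hochberg adjustment, and a gene passed at an adjusted p of 0.05. SE is the standard error, intervals are 95% confidence intervals, and n is 6 for Mdr2-KO/IL6-KO, 5 for Mdr2-KO and 3 for wild type throughout. Precision is limited by how few arrays there are. Hepatocyte markers marked the tissue as liver. None of 7 measured markers passed in any comparison, none was under the background, and their summed linear signal was 41400 to 47400 in Mdr2-KO/IL6-KO, 43300 to 47700 in Mdr2-KO and 42200 to 43900 in wild type.

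Of the 9 genes 5 passed in Mdr2-KO livers relative to wild type, where 21.0% of all genes tested did. Abcb1b and Abcg2 rose (2 of 9, beside 8.89% of all genes), and Abcb4, Abcg5 and Abcg8 fell (3 of 9, beside 12.1%). In Mdr2-KO/IL6-KO livers 4 of the 9 passed, where 12.3% of all genes did. Abcb1b and Abcg2 rose (2 of 9, beside 6.96% of all genes), and Abcb4 and Abcg8 fell (2 of 9, beside 5.33%). The counts against wild type include Abcb4, which is Mdr2, the gene that both knockout groups lack by their labels. Between the knockout groups limma called 0 of the 9, beside 8.76% of all genes. Before adjustment 3 of the 9 were under 0.05, a looser threshold for which 8.76% is not the background. The last of these 3 in the ranking of all genes by p, Abcb1a, stood at rank 5402. At least 5402 of 19938 genes were thus under 0.05 as well, so the 3 of 9 are not read as a result about these genes. The median difference over the 9 genes was 0.08 for Mdr2-KO against wild type, beside -0.073 over all genes, and 0.15 with Mdr2-KO/IL6-KO set against wild type, beside -0.018 over all genes. It was -0.04 between the knockout groups, beside 0.060 over all genes. The 2 comparisons with wild type share its 3 arrays and are not independent of each other.

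**Figure D1:**
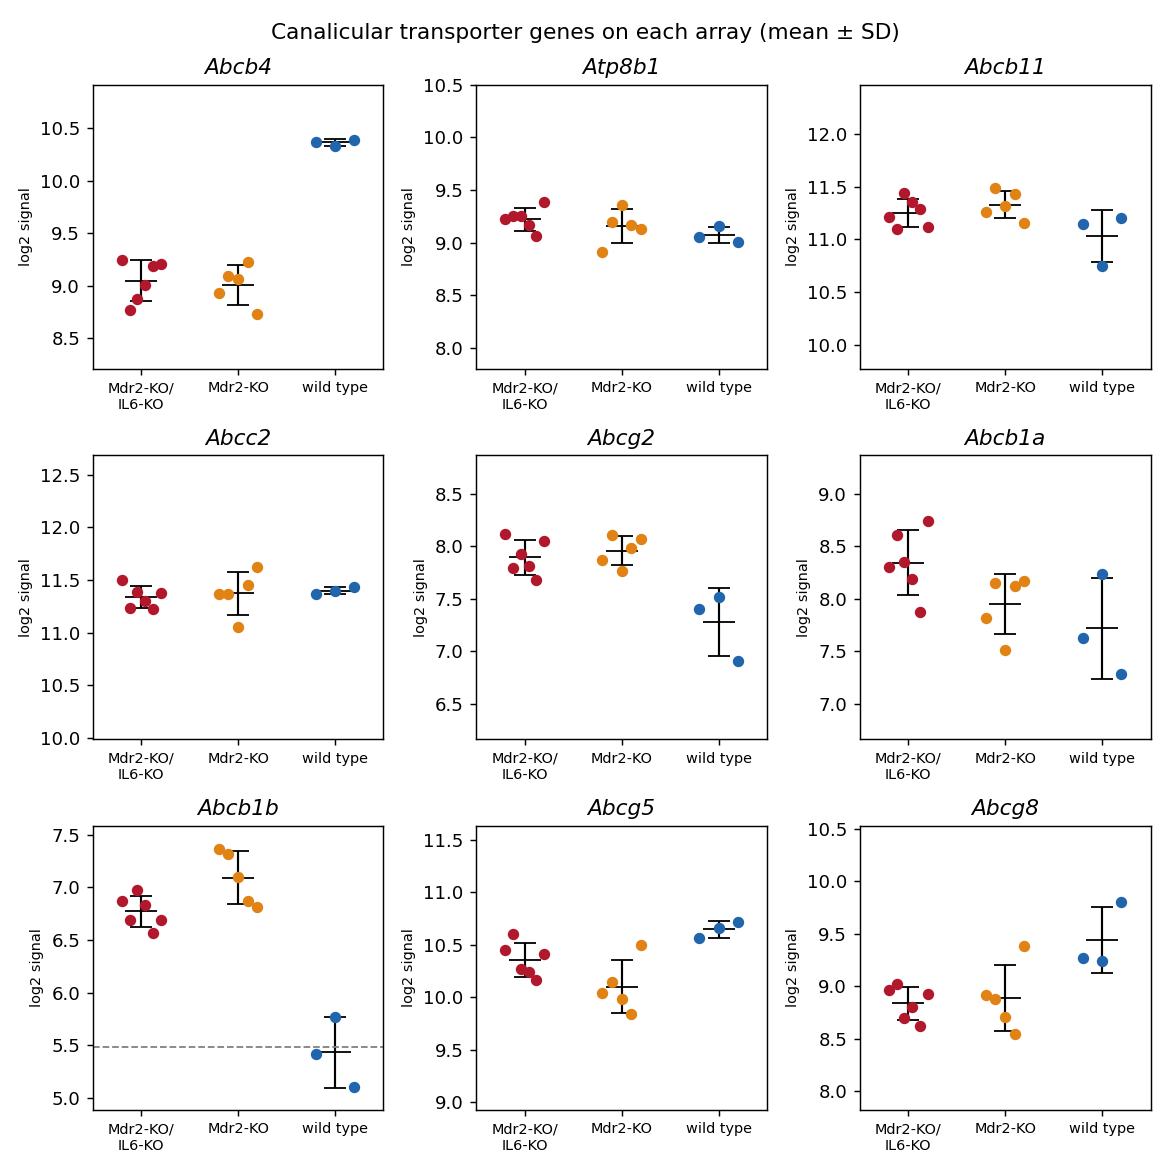
Log2 signal of each of the 9 genes on every array, with Mdr2-KO/IL6-KO (n = 6), Mdr2-KO (n = 5) and wild type (n = 3) from left to right. Points are arrays, black bars are mean ± SD, every panel spans the same number of log2 units, and the dashed line in the Abcb1b panel is the background of 5.48. All knockout arrays lie below wild type for Abcb4 and above wild type for Abcb1b and Abcg2.

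The phospholipid side of the canaliculus was read from Abcb4 and Atp8b1. Abcb4 read 8.77 to 9.24 (median 9.10) in Mdr2-KO/IL6-KO livers, against 8.93, 9.09, 9.06, 9.23 and 8.73 in Mdr2-KO and 10.37, 10.33 and 10.39 in wild type. Every knockout array was below every wild-type array, and the wild-type arrays had an SD of 0.03. This checks the labels for loss of Mdr2 only, since Abcb4 did not tell the knockout groups apart. In Mdr2-KO/IL6-KO it fell by 1.32 in log2 units with an SE of 0.11 and an adjusted p of 4.84e-06, a level 2.49-fold lower. In Mdr2-KO it fell by 1.36 with an SE of 0.12 and an adjusted p of 5.09e-06, a level 2.56-fold lower. The knockout means stayed 3.57 (Mdr2-KO/IL6-KO) and 3.53 (Mdr2-KO) above the background, so the probe set still reported signal in the livers labelled as knockouts. Whether this signal came from remaining transcript or from the closely related Abcb1a and Abcb1b was not tested. Between the knockout groups Abcb4 differed by 0.04 (interval -0.17 to 0.25, adjusted p = 0.816).

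Atp8b1 is the flippase that returns phospholipids from the outer to the inner leaflet and keeps the canalicular membrane resistant to bile salts. It read 9.06 to 9.39 (median 9.23) in Mdr2-KO/IL6-KO, 8.91, 9.20, 9.36, 9.17 and 9.13 in Mdr2-KO, and 9.05, 9.16 and 9.01 in wild type. The groups overlapped throughout. Atp8b1 did not pass, at 0.08 for Mdr2-KO against wild type (interval -0.11 to 0.27, adjusted p = 0.531) and 0.15 with Mdr2-KO/IL6-KO set against wild type (interval -0.04 to 0.34, adjusted p = 0.317). Between the knockouts the difference was 0.07 (interval -0.09 to 0.23).

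Neither main pump for bile salts and organic anions passed with all arrays. Abcb11 read 11.10 to 11.44 (median 11.25) in Mdr2-KO/IL6-KO, 11.26, 11.49, 11.32, 11.43 and 11.16 in Mdr2-KO, and 11.15, 10.75 and 11.20 in wild type. Wild-type array 2 was the lowest of all 14. The difference was 0.30 for Mdr2-KO against wild type (interval 0.07 to 0.53, adjusted p = 0.0637), and it passed after quantile normalization (0.37, adjusted p = 0.0227) and without Mdr2-KO array 5 (0.34, adjusted p = 0.0466). With Mdr2-KO/IL6-KO set against wild type it was 0.22 (interval -0.01 to 0.45, adjusted p = 0.210), and between the knockouts -0.08 (interval -0.27 to 0.12).

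Abcc2 (Mrp2), the pump for bilirubin glucuronides and other conjugated anions, had the smallest differences from wild type of the 9. It read 11.22 to 11.50 (median 11.34) in Mdr2-KO/IL6-KO, 11.37, 11.37, 11.05, 11.45 and 11.62 in Mdr2-KO, and 11.37, 11.40 and 11.43 in wild type. Knockout arrays lay on both sides of the wild-type arrays. The differences from wild type were -0.03 in Mdr2-KO (interval -0.24 to 0.19, adjusted p = 0.872) and -0.06 in Mdr2-KO/IL6-KO (interval -0.27 to 0.14, adjusted p = 0.756), and -0.04 between the knockouts (interval -0.22 to 0.14). Its signal on Mdr2-KO array 3 was the lowest and on Mdr2-KO array 5 the highest of all 14.

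Abcg2 (Bcrp), which exports sulfated conjugates, urate and many drugs, rose in both knockouts. It read 7.68 to 8.12 (median 7.87) in Mdr2-KO/IL6-KO, 7.87, 8.11, 7.77, 7.98 and 8.07 in Mdr2-KO, and 7.40, 7.52 and 6.91 in wild type. The lowest knockout array was above the highest wild-type array. The rise was 0.68 in Mdr2-KO (1.61-fold, SE 0.13, adjusted p = 0.00259) and 0.62 in Mdr2-KO/IL6-KO (1.54-fold, SE 0.13, adjusted p = 0.00463). Between the knockouts the difference was -0.06 (interval -0.29 to 0.17, adjusted p = 0.729).

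The multidrug pumps Abcb1a and Abcb1b, which in mouse share the part of the single human gene ABCB1 and export bulky hydrophobic and cationic compounds, are described one after the other. Abcb1b read 6.57 to 6.98 (median 6.76) in Mdr2-KO/IL6-KO, 7.37, 7.32, 7.10, 6.87 and 6.81 in Mdr2-KO, and 5.42, 5.77 and 5.10 in wild type. In wild type 2 of the 3 arrays were under the background, and every knockout array was above it. Its rise was 1.67 in Mdr2-KO (3.17-fold, SE 0.15, adjusted p = 6.76e-06) and 1.34 in Mdr2-KO/IL6-KO (2.54-fold, SE 0.15, adjusted p = 4.28e-05), the largest rise among the 9 genes in each comparison. Wild type lies at the background, so both folds may understate the change, and the knockout means stood 1.29 (Mdr2-KO/IL6-KO) and 1.61 (Mdr2-KO) above that background. Mdr2-KO/IL6-KO differed from Mdr2-KO by -0.32 (interval -0.59 to -0.06), which did not pass (adjusted p = 0.108).

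Abcb1a read 7.88 to 8.74 (median 8.33) in Mdr2-KO/IL6-KO, 7.82, 8.15, 7.51, 8.12 and 8.17 in Mdr2-KO, and 7.63, 8.24 and 7.29 in wild type. Its arrays spread more widely within groups than those of any other of the 9 genes in Mdr2-KO/IL6-KO and wild type, with SDs of 0.31 and 0.48, and wild-type array 2 lay among the knockout arrays. The differences were 0.23 for Mdr2-KO against wild type (interval -0.22 to 0.69, adjusted p = 0.440) and 0.62 with Mdr2-KO/IL6-KO set against wild type (interval 0.18 to 1.06, adjusted p = 0.0623). The last one passed without wild-type array 2 (0.88, with adjusted p = 0.0148), Mdr2-KO array 3 (0.62, adjusted p = 0.0453) or Mdr2-KO/IL6-KO array 5 (0.72, adjusted p = 0.0290), with array quality weights (0.58, adjusted p = 0.0396) and among the 13292 brightest genes (0.62, adjusted p = 0.0492). Between the knockouts it was 0.39 (interval 0.01 to 0.77, adjusted p = 0.157), the opposite sign to Abcb1b.

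**Figure D2:**
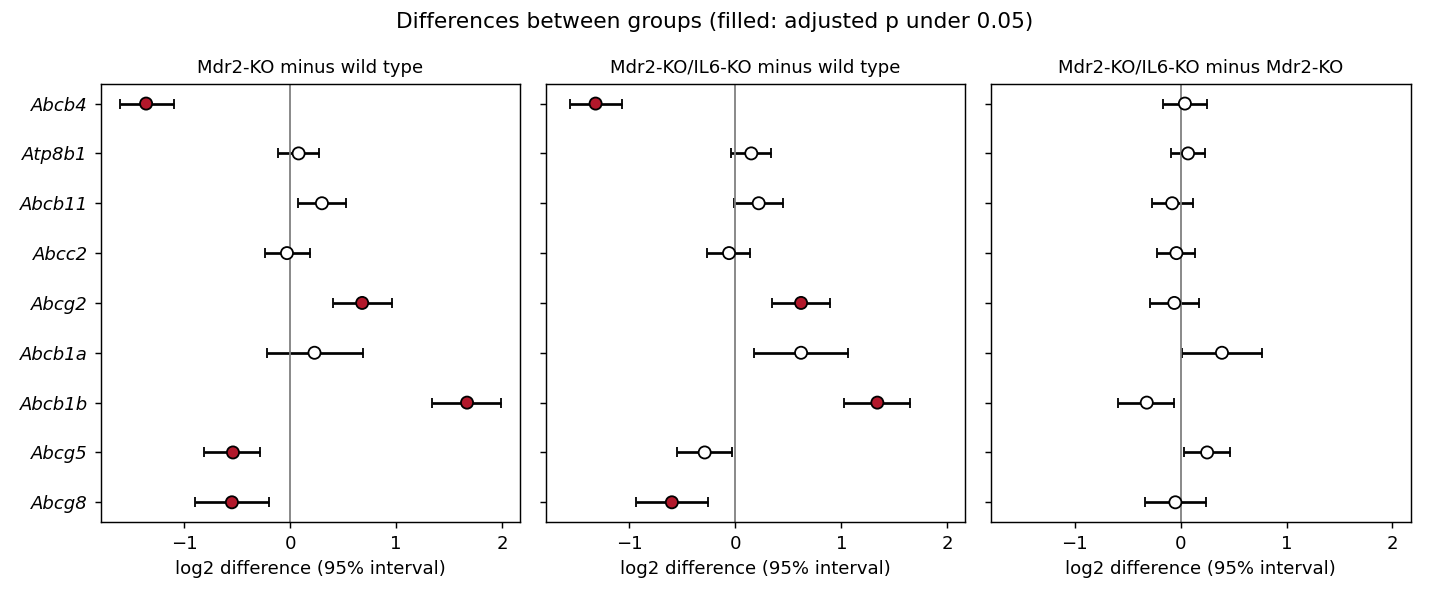
Log2 difference between groups for each of the 9 genes (horizontal axis), in 3 panels named by the comparison. Points are limma estimates, bars are 95% confidence intervals, and filled points passed at an adjusted p of 0.05. Against wild type Abcb4 stands at -1.36 and -1.32 and Abcb1b at 1.67 and 1.34, and no point is filled between the knockouts.

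Abcb1a, Abcb1b and Abcb4 follow each other on chromosome 5 in the RefSeq order of GRCm38.p6, with no other protein-coding gene among them. Around a targeted gene, DNA of the strain in which the targeting was done can remain, and its share in the values of Abcb1a and Abcb1b cannot be told apart from loss of Mdr2. The nearest measured genes on either side were therefore read too. Crot, a peroxisomal carnitine acyltransferase and the next protein-coding gene after Abcb4, differed from wild type by -0.15 in Mdr2-KO/IL6-KO (adjusted p = 0.692) and by 0.01 in Mdr2-KO (adjusted p = 0.970). Rundc3b, on the other side next to Abcb1a, differed by 0.15 in Mdr2-KO/IL6-KO (adjusted p = 0.514) and by 0.07 in Mdr2-KO (adjusted p = 0.725). Slc25a40, a mitochondrial carrier gene, was higher by 0.37 in Mdr2-KO (SE 0.11, adjusted p = 0.0245). That call ended without wild-type array 3 (0.19, with adjusted p = 0.143), without Mdr2-KO array 1 (0.34, adjusted p = 0.0549) and with only the 2 groups in the fit (adjusted p = 0.0651), and Slc25a40 did not pass in Mdr2-KO/IL6-KO (0.25, adjusted p = 0.148). Dbf4, a regulator of DNA replication, differed by 0.02 in Mdr2-KO/IL6-KO (adjusted p = 0.953) and by -0.05 in Mdr2-KO (adjusted p = 0.852).

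**Figure D3:**
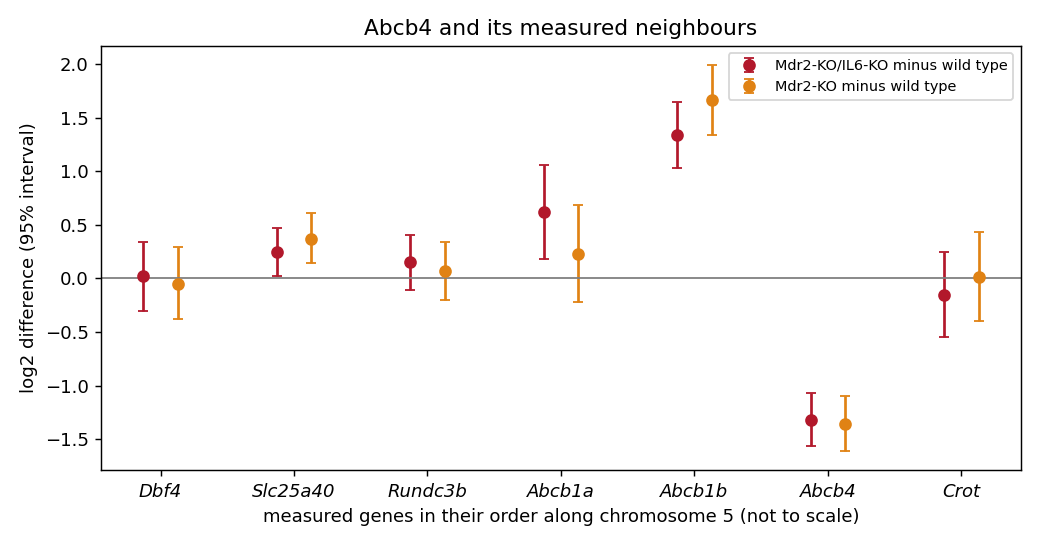
Log2 difference from wild type (vertical axis) of the 7 measured genes around Abcb4, in their order along chromosome 5. Points are limma estimates with 95% confidence intervals, Mdr2-KO/IL6-KO left of Mdr2-KO for each gene. Abcb1b and Abcb4 stand apart in opposite directions, and the other 5 genes lie between -0.15 and 0.62.

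Of the sterol pair, Abcg5 fell in Mdr2-KO and Abcg8 fell in both knockouts. Abcg5 read 10.16 to 10.60 (median 10.34) in Mdr2-KO/IL6-KO, 10.04, 10.15, 9.98, 9.84 and 10.50 in Mdr2-KO, and 10.56, 10.66 and 10.72 in wild type. All Mdr2-KO arrays were below wild type, whereas 1 Mdr2-KO/IL6-KO array, at 10.60, reached into the wild-type range. In Mdr2-KO it fell by 0.54 in log2 units (1.46-fold lower, SE 0.13, adjusted p = 0.00762). The difference of Mdr2-KO/IL6-KO from wild type, -0.29 (interval -0.55 to -0.03, adjusted p = 0.138), did not pass. Set directly against Mdr2-KO, Abcg5 in Mdr2-KO/IL6-KO differed by 0.25 (interval 0.03 to 0.47, adjusted p = 0.127), which did not pass with all arrays but did without Mdr2-KO array 5 (0.35, adjusted p = 0.0243).

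Abcg8 read 8.62 to 9.02 (median 8.86) in Mdr2-KO/IL6-KO, 8.92, 8.88, 8.71, 8.55 and 9.38 in Mdr2-KO, and 9.27, 9.24 and 9.80 in wild type. All Mdr2-KO/IL6-KO arrays were below wild type, while Mdr2-KO array 5 lay above 2 of its arrays. It fell by 0.60 in Mdr2-KO/IL6-KO with an SE of 0.16 and an adjusted p of 0.0214, and fell by 0.55 in Mdr2-KO with the same SE and an adjusted p of 0.0283. Without wild-type array 3 the difference was -0.42 in Mdr2-KO/IL6-KO (adjusted p = 0.139) and -0.37 in Mdr2-KO (adjusted p = 0.177). The Mdr2-KO call also ended without Mdr2-KO array 3 (-0.50, adjusted p = 0.0539) or 4 (-0.46, adjusted p = 0.0622), with array quality weights (-0.41, adjusted p = 0.0637) and with only the 2 groups in the fit (adjusted p = 0.0662). Between the knockouts Abcg8 differed by -0.05 (interval -0.34 to 0.24, adjusted p = 0.823).

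Because the products of Abcg5 and Abcg8 leave the endoplasmic reticulum only as a dimer, the 2 genes were compared array by array in Mdr2-KO/IL6-KO, the only group of 6 arrays. Arrays high in Abcg5 were high in Abcg8, with Pearson r = 0.95 (exact permutation p = 0.011, 2-sided) and Spearman rho = 0.94 (exact permutation p = 0.017). No other relation of this kind was computed, so no adjustment applies. Variation that many genes may share on these 6 arrays was therefore not set apart. Without the 2 arrays farthest from the median of Abcg5, r was 0.90 over 4 arrays, too few to test. Wild-type array 3 was highest in both genes and Mdr2-KO array 4 lowest in both.

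**Figure D4:**
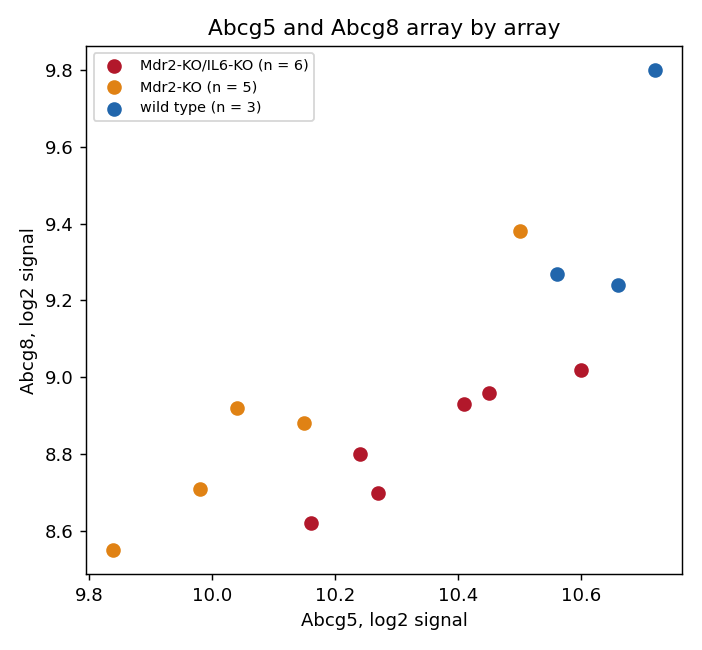
Log2 signal of Abcg8 (vertical axis) against Abcg5 (horizontal axis), 1 point per array, coloured by group. Within Mdr2-KO/IL6-KO (n = 6) the 2 genes order the arrays almost alike (rho = 0.94), and wild type (n = 3) lies toward the upper right.

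Read as groups, the arrays did not overlap for 4 of the 9 genes in Mdr2-KO against wild type (23.5% of all genes) and for 4 of 9 with Mdr2-KO/IL6-KO set against wild type (15.1% of all genes). They did not overlap for 0 of 9 between the knockouts (7.34% of all genes). Abcb4, the gene that both knockout groups lack, was among the 4 in each comparison with wild type. Whole liver was measured, so fewer cells of a type and less RNA per cell cannot be told apart. Marker counts below are calls over all genes tested. Among all genes 6.96% were higher and 5.33% lower in Mdr2-KO/IL6-KO than in wild type. In Mdr2-KO 8.89% were higher and 12.1% lower. Cholangiocytes line the bile ducts, and of 9 measured markers 6 rose in Mdr2-KO/IL6-KO and 4 in Mdr2-KO against wild type. Their summed linear signal was 1400 to 2940 in Mdr2-KO/IL6-KO and 1430 to 2490 in Mdr2-KO, against 725 to 1060 in wild type, where Tspan8 and Cftr were under the background. A linear sum mostly follows the brightest genes of its list. Here that was Cd24a, at 9.89 in Mdr2-KO/IL6-KO and 9.80 in Mdr2-KO, against 8.01 in wild type. Endothelial markers, from a cell type that can also express Abcg2 and Abcb1a, summed to 3550 to 4650 in Mdr2-KO/IL6-KO, 3510 to 4220 in Mdr2-KO and 4140 to 4870 in wild type. Of 8 measured, 0 passed in Mdr2-KO/IL6-KO and 2 fell in Mdr2-KO. Macrophage markers summed to 6180 to 8550 in Mdr2-KO/IL6-KO, 5730 to 7580 in Mdr2-KO and 5800 to 6540 in wild type. Of 10 macrophage markers 4 rose and 1 fell in Mdr2-KO/IL6-KO, and 3 rose and 1 fell in Mdr2-KO. Stellate cell and myofibroblast markers summed to 5030 to 6050 in Mdr2-KO/IL6-KO, 3780 to 5440 in Mdr2-KO and 4970 to 5320 in wild type, and 2 of 8 rose and 1 fell in each knockout. Their brightest gene, Dcn, read 11.72 in Mdr2-KO/IL6-KO, 11.50 in Mdr2-KO and 11.67 in wild type, and did not pass. Lymphocyte markers (T, NK and B cells) summed to 421 to 690 in Mdr2-KO/IL6-KO, 454 to 647 in Mdr2-KO and 660 to 1400 in wild type. Of 7 measured, 4 fell in Mdr2-KO/IL6-KO and 2 in Mdr2-KO. Ms4a1 was under the background in both knockouts and Cd79a in Mdr2-KO. Of 6 neutrophil markers limma called 0 in any comparison, and their sum was 334 to 1810 in Mdr2-KO/IL6-KO, 316 to 3480 in Mdr2-KO and 299 to 346 in wild type, where S100a8, Ly6g and Retnlg were under the background. Ly6g was also under it in both knockouts. The part of these cells in the values of the 9 genes was not tested.

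Genes that supply or steer the canalicular pumps were taken from 6 lists. Counts of them are calls over all genes tested, and the percentages of all genes given above are their background too. Phosphatidylcholine supply, the source of the lipid that Abcb4 exports, had 2 of 11 higher and 4 lower in Mdr2-KO, with a median of -0.12. Pctp, the phosphatidylcholine transfer protein, fell to 9.73 ± 0.27 in Mdr2-KO, against 10.60 ± 0.11 in wild type (-0.87, SE 0.15, adjusted p = 0.00163). The choline carrier Slc44a1 rose to 9.92 ± 0.21 in Mdr2-KO, against 9.30 ± 0.13 in wild type (0.62, SE 0.12, adjusted p = 0.0031). Chka, the first kinase of the choline pathway, rose there by 0.82 (adjusted p = 0.0428), a call that ended under 12 of 22 alternatives, with an adjusted p of up to 0.113.

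In Mdr2-KO/IL6-KO 2 of the 11 phosphatidylcholine genes rose and 3 fell relative to wild type, with a median of -0.03. Chka rose by 1.01 (SE 0.26, adjusted p = 0.0202), a call that ended without any 1 wild-type array (0.96 to 1.04, adjusted p = 0.051 to 0.0766). Chpt1, a cholinephosphotransferase, rose by 0.39 (adjusted p = 0.019). Its call ended without wild-type array 1 (0.37, with adjusted p = 0.0737) or 3 (0.39, adjusted p = 0.0566). Gpcpd1, which splits glycerophosphocholine, fell by 0.81 (adjusted p = 0.0106), and that call ended without wild-type array 3 (-0.70, with adjusted p = 0.0639). Pctp fell by 0.57 (adjusted p = 0.0214), with the call ending without wild-type array 1 (-0.51, with adjusted p = 0.0941) or 3 (-0.57, adjusted p = 0.0667). Between the knockouts 2 of 11 were higher and 1 lower in Mdr2-KO/IL6-KO. Slc44a1 was lower (-0.57, SE 0.10, adjusted p = 0.00458). Pcyt1b, an enzyme of the choline pathway whose means lay under the background, was higher by 0.31 (adjusted p = 0.0324), and Lpcat3, which remodels acyl chains, by 0.24 (adjusted p = 0.0384). The Pcyt1b call ended under 9 of 21 alternatives and the Lpcat3 call under 10 of 22. Both genes had fallen in Mdr2-KO against wild type, Lpcat3 (-0.39, adjusted p = 0.00413) and Pcyt1b (-0.34, adjusted p = 0.0272). That Lpcat3 call held under every alternative, and that Pcyt1b call ended under 5 of 21.

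Cholesterol supply to bile had 2 of 10 genes higher in Mdr2-KO, and 1 higher and 1 lower in Mdr2-KO/IL6-KO, with medians of -0.06 and 0.03. Scarb1, the HDL receptor that brings cholesterol to the hepatocyte, read 10.24 ± 0.14 in Mdr2-KO/IL6-KO and 10.23 ± 0.09 in Mdr2-KO, against 9.58 ± 0.24 in wild type. It rose by 0.66 in Mdr2-KO/IL6-KO (adjusted p = 0.000634) and by 0.64 in Mdr2-KO (adjusted p = 0.000855). Scp2, a peroxisomal sterol carrier, rose by 0.59 in Mdr2-KO (adjusted p = 0.012). Its call ended without wild-type array 1 (0.53, with adjusted p = 0.0517) or 3 (0.52, adjusted p = 0.0659). Stard4, a cytosolic sterol carrier, read 8.43 ± 0.13 in Mdr2-KO/IL6-KO, 8.85 ± 0.12 in Mdr2-KO and 8.88 ± 0.16 in wild type. In Mdr2-KO/IL6-KO it was lower than in wild type (-0.45, adjusted p = 0.00462) and lower than in Mdr2-KO (-0.42, adjusted p = 0.00643). Npc2, a lysosomal sterol carrier, was higher in Mdr2-KO/IL6-KO than in Mdr2-KO by 0.29 (adjusted p = 0.00653).

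On the blood side of the hepatocyte, 1 of 12 basolateral bile acid transporter genes rose and 2 fell in Mdr2-KO, and 2 rose and 1 fell in Mdr2-KO/IL6-KO, with medians of 0.14 and -0.11. Slc10a1 (Ntcp), the sodium-coupled importer of bile salts, read 11.96 ± 0.13 in Mdr2-KO/IL6-KO and 12.06 ± 0.06 in Mdr2-KO, against 12.42 ± 0.07 in wild type. It fell by 0.46 in Mdr2-KO/IL6-KO (adjusted p = 0.00118) and by 0.36 in Mdr2-KO (adjusted p = 0.00577). Slc51b, a subunit of the basolateral bile salt exporter, read 8.38 ± 0.39 in Mdr2-KO/IL6-KO and 7.80 ± 0.13 in Mdr2-KO, against 6.77 ± 0.84 in wild type. It rose by 1.61 in Mdr2-KO/IL6-KO (adjusted p = 0.00139, SE 0.27) and by 1.03 in Mdr2-KO (SE 0.28, adjusted p = 0.0192). The Mdr2-KO call ended without wild-type array 1 (0.84, with adjusted p = 0.0874) or 3 (0.74, adjusted p = 0.128). Its partner subunit Slc51a, whose means lay under the background, was lower in Mdr2-KO (-0.44, adjusted p = 0.0357), and without wild-type array 3 it did not pass (-0.25, adjusted p = 0.23). That call ended under 7 of 21 alternatives.

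Abcc3 (Mrp3), which exports conjugates to blood, rose by 0.49 in Mdr2-KO/IL6-KO relative to wild type (adjusted p = 0.0272). Its call ended when any of 3 arrays was left out, wild-type array 1 (0.39, with adjusted p = 0.138), wild-type array 2 (0.50, with adjusted p = 0.067) and Mdr2-KO/IL6-KO array 1 (0.44, adjusted p = 0.0508). Between the knockouts 1 of 12 was higher and 3 lower in Mdr2-KO/IL6-KO. Abcc4 (Mrp4), another basolateral exporter, read 7.92 ± 0.36 in Mdr2-KO/IL6-KO, against 7.13 ± 0.44 in Mdr2-KO (0.79, SE 0.20, adjusted p = 0.0248), and did not pass without Mdr2-KO array 1 (0.79, adjusted p = 0.058). The uptake carriers Slco1a1, with means under the background (-0.48, adjusted p = 0.0361), and Slco1b2 (-0.27, adjusted p = 0.0491) were lower. The Slco1a1 call ended under 8 of 21 alternatives and the Slco1b2 call under 14 of 22.

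Bile acid synthesis and conjugation genes fell in 2 of 12 in Mdr2-KO, and 1 of 12 rose in Mdr2-KO/IL6-KO, with medians of -0.02 and -0.06. Cyp7a1, the rate-limiting enzyme of bile acid synthesis, read 11.19 ± 0.33 in Mdr2-KO, against 11.89 ± 0.23 in wild type (-0.70, SE 0.22, adjusted p = 0.0345), and its call ended under 5 of 22 alternatives, with an adjusted p of up to 0.126 (-0.59, without wild-type array 1). Cyp7b1, the oxysterol hydroxylase, fell by 0.97 in Mdr2-KO (SE 0.25, adjusted p = 0.0149), and that call ended without wild-type array 3 (-0.67, with adjusted p = 0.106). Acox2, of the side-chain oxidation, rose in Mdr2-KO/IL6-KO by 0.48 (adjusted p = 0.00286). Amacr, a racemase of the same pathway, was lower in Mdr2-KO/IL6-KO than in Mdr2-KO (-0.37, adjusted p = 0.0114).

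**Figure D5:**
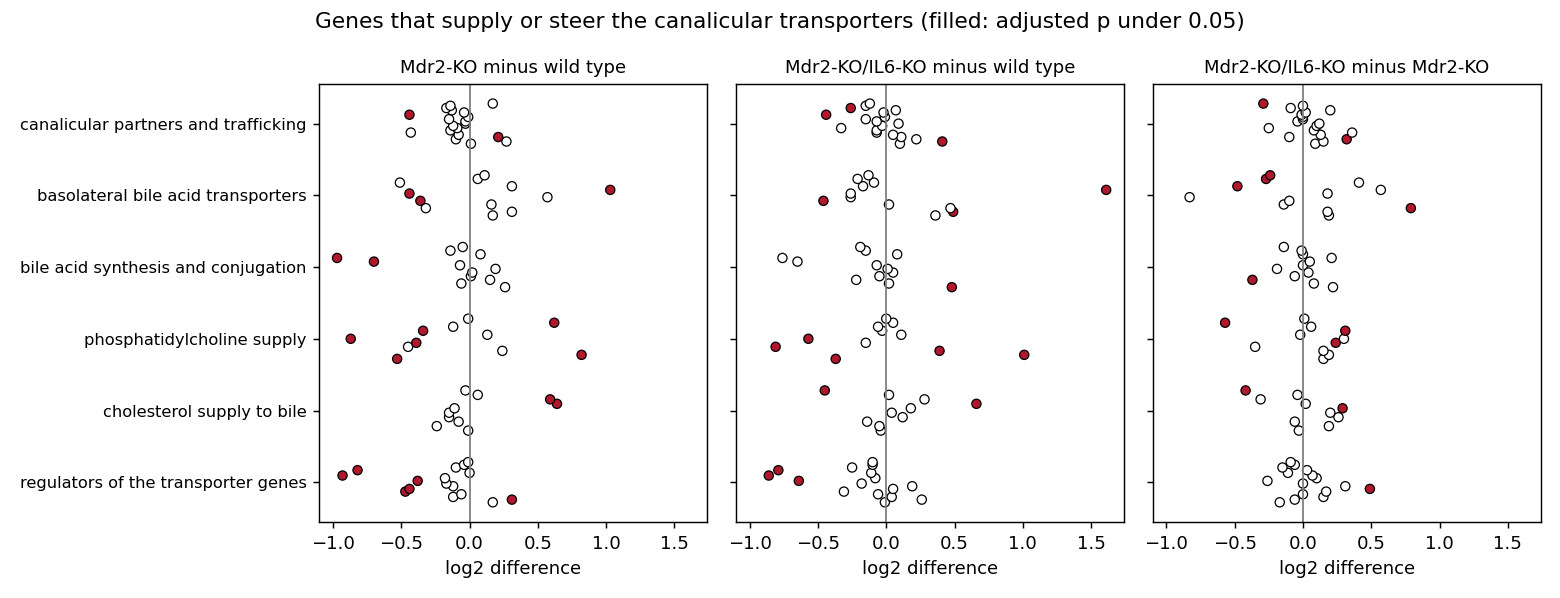
Log2 difference of every measured gene in 6 lists related to canalicular transport, in 3 panels named by the comparison. Each point is a gene, filled where it passed at an adjusted p of 0.05, and the vertical spread within a list has no meaning. Most points lie near 0, and the farthest right, at 1.61, is Slc51b in Mdr2-KO/IL6-KO against wild type.

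Regulators of the transporter genes fell in 5 of 16 and rose in 1 in Mdr2-KO, and fell in 3 and rose in 0 in Mdr2-KO/IL6-KO, with medians of -0.12 and -0.10. Ppara, the fatty acid receptor, fell by 0.79 in Mdr2-KO/IL6-KO (adjusted p = 2.98e-05) and by 0.82 in Mdr2-KO (adjusted p = 2.5e-05, means of 9.97 ± 0.08 in Mdr2-KO and 10.79 ± 0.10 in wild type). Nr1h4 (FXR), the bile acid receptor that induces Abcb11, fell to 9.29 ± 0.23 in Mdr2-KO/IL6-KO, against 9.93 ± 0.02 in wild type (-0.64, SE 0.11, adjusted p = 0.00111). It also fell in Mdr2-KO, to 9.54 ± 0.02 (-0.38, adjusted p = 0.0231), a call that did not hold when wild-type array 1 was left out (-0.37, adjusted p = 0.0653) or when array 3 was (-0.40, adjusted p = 0.0634). Between the knockouts the difference was -0.26 (adjusted p = 0.083). Nr0b2, the repressor that FXR induces, read 8.68 ± 0.41 in Mdr2-KO/IL6-KO, 8.38 ± 0.46 in Mdr2-KO and 8.49 ± 0.48 in wild type and did not pass. Nr1h3 (LXR alpha), the oxysterol receptor that induces Abcg5 and Abcg8, did not pass either, at 9.33 ± 0.21 in Mdr2-KO/IL6-KO, 9.34 ± 0.12 in Mdr2-KO and 9.51 ± 0.14 in wild type.

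Nr1i3 (CAR), the drug sensor, fell by 0.86 in Mdr2-KO/IL6-KO (adjusted p = 0.00976) and by 0.93 in Mdr2-KO (adjusted p = 0.00583). Its Mdr2-KO/IL6-KO call ended without wild-type array 3 (-0.70, with adjusted p = 0.0691). Klb, the co-receptor for the ileal hormone that restrains bile acid synthesis, fell in Mdr2-KO by 0.47 (adjusted p = 0.0134). That call ended without wild-type array 1 (-0.40, with adjusted p = 0.0632) or 3 (-0.36, adjusted p = 0.088). Fgfr4, the receptor it pairs with, rose there by 0.31 (adjusted p = 0.0209), a call that ended without wild-type array 1 (0.26, with adjusted p = 0.0903) or 2 (0.27, adjusted p = 0.0667) and with only the 2 groups in the fit (adjusted p = 0.0557). Between the knockouts Nfe2l2 (NRF2), the oxidant sensor, was the 1 of 16 that passed. It read 10.77 ± 0.16 in Mdr2-KO/IL6-KO, against 10.28 ± 0.14 in Mdr2-KO (0.49, SE 0.09, adjusted p = 0.00472). Wild type read 10.72 ± 0.16. Against it Nfe2l2 fell by 0.44 in Mdr2-KO (adjusted p = 0.00971) and did not pass in Mdr2-KO/IL6-KO (0.05, adjusted p = 0.836).

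Proteins that hold the pumps in place or carry them to the canaliculus had 1 of 19 genes higher and 1 lower in Mdr2-KO, and 1 higher and 2 lower in Mdr2-KO/IL6-KO, with medians of -0.09 and -0.03. Cingulin (Cgn), a tight junction protein, rose to 7.50 ± 0.11 in Mdr2-KO/IL6-KO, against 7.09 ± 0.17 in wild type (0.41, SE 0.09, adjusted p = 0.00663). Slc9a3r1 (EBP50), a scaffold that binds membrane transporters, read 9.54 ± 0.11 in Mdr2-KO/IL6-KO and 9.55 ± 0.18 in Mdr2-KO, against 9.99 ± 0.27 in wild type, and fell in both (adjusted p = 0.0193 and 0.0184). Without wild-type array 2 it read -0.29 in each, with adjusted p of 0.116 in Mdr2-KO/IL6-KO and 0.0809 in Mdr2-KO, and neither call held with array quality weights. Tmem30a, the subunit that Atp8b1 needs to leave the endoplasmic reticulum, read 10.70 ± 0.10 in Mdr2-KO/IL6-KO, against 10.96 ± 0.04 in wild type. Its difference of -0.26 (adjusted p = 0.047) ended under 11 of 22 alternatives, with an adjusted p of up to 0.146 after quantile normalization.

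Hax1, a partner of Abcb11, rose by 0.21 in Mdr2-KO (adjusted p = 0.0442), a call that ended under 13 of 22 alternatives, with an adjusted p of up to 0.14. Between the knockouts Ezr, the membrane linker ezrin, was higher in Mdr2-KO/IL6-KO by 0.32 (adjusted p = 0.042), a call that ended under 11 of 22. Vps33b, a trafficking protein needed for canalicular delivery, was lower in Mdr2-KO/IL6-KO (-0.29, adjusted p = 0.024). Its call ended without Mdr2-KO array 1 (adjusted p = 0.0605), Mdr2-KO array 4 (adjusted p = 0.0616) or Mdr2-KO/IL6-KO array 4 (adjusted p = 0.0534).

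The genes most like each changed transporter were sought over all 14 arrays by the root mean square difference of their log2 values, each gene less its own mean. Nearest to Abcb4 were Cyp51, a cholesterol synthesis enzyme, at 0.23, and the kinase gene Tnik and the aldehyde dehydrogenase gene Aldh3b3 at 0.24, where the median over genes was 0.57. Nearest to Abcb1b were the complement component C6 at 0.24 and the zinc importer Slc39a4 and the neurotrophin receptor Ntrk2 at 0.25, where the median was 0.70. C6 read 10.02 in Mdr2-KO/IL6-KO and 10.31 in Mdr2-KO, against 8.96 in wild type. Nearest to Abcg2 were Anapc4 (0.11), Slc39a10 (0.12) and Tusc3 (0.13), with a median of 0.37. Nearest to Abcg5 were Slc35f2 (0.11), Nhlrc2 (0.12) and Rhbdd2 (0.13), with a median of 0.27. Abcg8 had the clock-controlled transcription factor gene Hlf nearest at 0.15, followed by 2900026A02Rik (0.18) and Tox (0.19), with a median of 0.34.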

How the data were processed

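Biotin-labelled cRNA of 14 liver samples was measured on Affymetrix arrays, per the labels. Partek and RMA are named in the submitters' processing notes, and the deposited values lie on the log2 scale that RMA gives after background correction and quantile normalization. For versions, filters, pooling and genome build: not given in the sources used here. No 2 arrays shared more than 0.062% of values.

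Of 35557 probe sets 21789 have 1 gene name, and 21698 of these matched RefSeq by gene identifier. Each of 19938 genes was read from its probe set of highest mean. Groups, taken from the labels, were compared in limma 3.58.1 under R 4.3.3 with 3 group means, a 2-sided moderated test, Benjamini-Hochberg adjustment over all genes and a threshold of 0.05, tested on simulated data. Python 3.11.15 and SciPy 1.17.1 did the rest. Named genes are the 9 members, up to 3 per list and comparison with the largest change among those that passed, list genes that passed against most of their list, and the 3 genes most like each called member. Nr0b2, Nr1h3, and Nfe2l2, Nr1h4, Pcyt1b and Lpcat3 in Mdr2-KO were chosen after their values were seen. So were Cd24a, Dcn, the neighbours of Abcb4 and the named genes of the wider ABC and P4-ATPase families. The members and lists were chosen with earlier results of these data known. Alternatives covered normalization, filtering, probe choice, moderation, weights, groups in the fit and leaving out each array.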

Additional observations from a re-analysis of the deposited data

How the results depend on the processing

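Of 594 values of the 9 genes under alternative settings, 572 kept their direction and their side of the threshold, 8 passed newly, 6 no longer passed and 8 changed sign. The calls of Abcb4, Abcb1b, Abcg2 and Abcg5 against wild type held under every alternative in the comparisons where they passed, and those that ended were of Abcg8. Sign changes touched only values that did not pass. Abcc2 in Mdr2-KO against wild type read 0.04 after quantile normalization, 0.01 with array weights and -0.09 to 0.05 with 1 array left out. Between the knockouts Abcb4 read -0.01 with centred arrays, and with 1 array left out Abcb4 read -0.03 to 0.09, Abcc2 -0.12 to 0.02 and Abcg8 -0.13 to 0.07. The count of the 9 genes that passed was 4 to 6 in Mdr2-KO against wild type, 3 to 5 with Mdr2-KO/IL6-KO set against wild type, and 0 to 1 between the knockouts when 1 array was left out (1 without Mdr2-KO array 5).

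Counts over all genes moved more. Mdr2-KO against wild type called 4189 genes, and 2140 to 4507 with 1 array left out, the lowest without wild-type array 3, and its split of 1772 higher and 2417 lower became 1793 and 1763 after quantile normalization. Mdr2-KO/IL6-KO against wild type called 2450, and 1635 to 2544 with 1 array left out, and its split of 1388 higher and 1062 lower became 1006 and 1573 with centred arrays. Between the knockouts 1746 were called, 2944 when every probe set was tested and 754 to 2164 with 1 array left out (754 without Mdr2-KO array 1, 932 without array 3 and 999 without array 4, 1055 without Mdr2-KO/IL6-KO array 4 and 1045 without array 5). The split of 1005 higher and 741 lower became 675 and 852 after quantile normalization and 424 and 1056 with centred arrays. The relation of Abcg5 to Abcg8 was r = 0.93 after quantile normalization, 0.95 with centred arrays and 0.90 without the 2 farthest arrays. Of 71 calls in the lists and families of related genes, 29 held under every alternative. No 1 array stood apart from its group in any of the 18 combinations of gene and knockout group tested. Wild type, with 3 arrays, was not tested. Array quality weights were lowest for wild-type array 3 (0.43) and highest for wild-type array 1 (2.04). No paired analysis was possible because the labels number no knockout array in step with another group. Signal near the background limits Abcb1b in wild type.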

Other observations

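Of 40 other measured ABC transporter genes 5 rose and 2 fell in Mdr2-KO relative to wild type, with a median of -0.01. Among all genes 8.89% rose and 12.1% fell there. In Mdr2-KO/IL6-KO 4 of the 40 rose and 2 fell relative to wild type, with a median of 0.05. Among all genes 6.96% rose and 5.33% fell in that comparison. Abcd2, a peroxisomal carrier of very long-chain fatty acyl-CoA, fell to 9.45 ± 0.22 in Mdr2-KO/IL6-KO and 9.28 ± 0.39 in Mdr2-KO, against 10.31 ± 0.12 in wild type (-0.86, adjusted p = 0.00456, and -1.03, adjusted p = 0.00153). Abca5, a lysosomal lipid transporter, rose to 8.38 ± 0.35 in Mdr2-KO/IL6-KO, against 7.34 ± 0.17 in wild type (1.04, SE 0.17, adjusted p = 0.00106). Abcc5, an exporter of cyclic nucleotides, rose there by 0.35 (adjusted p = 0.00785). Abcf2, an ABC protein without membrane-spanning domains, rose to 8.19 ± 0.07 in Mdr2-KO, against 7.92 ± 0.06 in wild type (0.27, adjusted p = 0.00961).

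Among 13 other P4-ATPases, the family of Atp8b1, 3 rose in Mdr2-KO (beside 8.89% of all genes). In Mdr2-KO/IL6-KO 1 rose and 1 fell (beside 6.96% and 5.33% of all genes). Atp9a, an endosomal member, read 8.72 ± 0.24 in Mdr2-KO/IL6-KO and 8.78 ± 0.13 in Mdr2-KO, against 8.14 ± 0.18 in wild type (0.58, adjusted p = 0.00608, and 0.64, adjusted p = 0.00342).

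The calls of Abcd2, Abca5, Abcc5, Abcf2 and Atp9a given here are those of these families that held under all 22 alternatives.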
